A study of Mus musculus with 24 samples.

Results

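The regions described here are stretches of DNA that were called accessible at days 2 and 3 of cardiac differentiation and at no other time point sampled. The deposited peaks of all time points were merged, and a merged region counted as held by a time point that had a peak sharing 1 bp or more with it. Of 128679 merged regions, 1341 (1.04%) were held by the lists of day 2 (D2) and day 3 (D3) and by none of the other 10 lists. The regions were thus chosen by their peak calls at D2 and D3 and the absence of calls elsewhere, so the fold enrichments and q-values of those calls are given as a description.

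The material was A2lox.cre, a single established mouse embryonic stem cell line with a docking site for inducible transgenes, differentiated towards cardiomyocytes. ATAC-seq, in which the Tn5 transposase inserts sequencing adapters into open DNA, was run on 24 samples, with 12 time points and 2 biological replicates per time point. These were the 2i stage (a medium that keeps stem cells in naive pluripotency), each day from 0 to 8, and days 10 and 15, with no other genotype or treatment among the groups. The 2 replicates of a time point share 1 peak list, so no spread between replicates can be given, and differences between lists have no test. A peak call in a bulk sample also cannot tell a smaller number of cells of one kind from lower accessibility in each cell, and a region without a call is not thereby closed.

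When mouse embryonic stem cells leave naive pluripotency they pass through a formative state that resembles the epithelial epiblast of the early embryo, in which genes such as Pou3f1, Otx2 and Dnmt3b are active. Cells of the epiblast can then enter the primitive streak under Nodal, BMP and WNT signals and undergo an epithelial-to-mesenchymal transition, in which the repressors of the SNAI and ZEB families bind the E-box CAGGTG at epithelial genes such as Cdh1. Promoters of many germline genes are methylated and silenced during the same passage.

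A small part of the regions holds an annotated gene start. RefSeq gene start windows (build GRCm38.p6, 250 bases before to 50 after each start) could be set against 1308 of the regions, and 79 windows of 69 genes, 54 of them protein-coding, had their start in 66 of these regions. The sequences below show the 250 bases before the start, 5′ to 3′ on the gene's strand, with each CAGGTG, read on either strand and so also as CACCTG, in capitals. They were chosen after the members were seen, to show epithelial, germline and neuronal genes with the E-box and 1 gene of the node without it. Cldn4 (chr5:134946935-134947184, minus strand) and Cldn6 (chr17:23679115-23679364, plus strand) encode tight-junction claudins, and Crb3 (chr17:57061951-57062200, plus strand) an apical polarity protein. Figla (chr6:86016941-86017190, plus strand) encodes an oocyte bHLH factor and Tdrd1 (chr19:56825959-56826208, plus strand) a Tudor protein of the piRNA pathway. Elavl3 (chr9:22052024-22052273, minus strand) encodes a neuronal RNA-binding protein, and Noto (chr6:85423636-85423885, plus strand) a homeobox factor of the node and notochord.
Cldn4: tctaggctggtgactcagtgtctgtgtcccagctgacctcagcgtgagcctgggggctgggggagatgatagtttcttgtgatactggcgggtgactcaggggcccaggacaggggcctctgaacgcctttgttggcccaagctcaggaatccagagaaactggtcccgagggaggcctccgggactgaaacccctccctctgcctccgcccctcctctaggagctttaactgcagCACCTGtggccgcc
Cldn6: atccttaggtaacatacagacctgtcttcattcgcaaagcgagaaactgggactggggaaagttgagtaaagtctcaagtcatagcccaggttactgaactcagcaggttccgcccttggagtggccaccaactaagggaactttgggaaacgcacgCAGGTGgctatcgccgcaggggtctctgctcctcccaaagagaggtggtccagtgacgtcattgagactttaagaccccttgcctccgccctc
Crb3: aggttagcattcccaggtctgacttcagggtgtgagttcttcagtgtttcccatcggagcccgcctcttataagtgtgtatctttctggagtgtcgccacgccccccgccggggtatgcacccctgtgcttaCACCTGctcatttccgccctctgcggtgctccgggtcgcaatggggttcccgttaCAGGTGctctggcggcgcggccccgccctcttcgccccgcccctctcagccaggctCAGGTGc
Figla: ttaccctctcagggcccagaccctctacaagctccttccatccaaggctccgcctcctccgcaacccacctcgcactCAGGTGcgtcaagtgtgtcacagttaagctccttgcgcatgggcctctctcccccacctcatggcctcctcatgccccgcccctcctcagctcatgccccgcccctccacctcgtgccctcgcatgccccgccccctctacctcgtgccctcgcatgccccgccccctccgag
Tdrd1: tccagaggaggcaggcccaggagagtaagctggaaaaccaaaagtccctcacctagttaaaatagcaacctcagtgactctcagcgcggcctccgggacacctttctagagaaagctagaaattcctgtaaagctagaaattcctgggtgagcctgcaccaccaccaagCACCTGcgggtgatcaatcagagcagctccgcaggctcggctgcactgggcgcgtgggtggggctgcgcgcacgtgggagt
Elavl3: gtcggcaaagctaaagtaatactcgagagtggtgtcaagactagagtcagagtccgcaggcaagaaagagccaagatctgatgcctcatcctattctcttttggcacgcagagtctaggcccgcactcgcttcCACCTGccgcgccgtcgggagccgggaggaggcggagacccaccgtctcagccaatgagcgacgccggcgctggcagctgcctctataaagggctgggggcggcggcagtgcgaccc
Noto: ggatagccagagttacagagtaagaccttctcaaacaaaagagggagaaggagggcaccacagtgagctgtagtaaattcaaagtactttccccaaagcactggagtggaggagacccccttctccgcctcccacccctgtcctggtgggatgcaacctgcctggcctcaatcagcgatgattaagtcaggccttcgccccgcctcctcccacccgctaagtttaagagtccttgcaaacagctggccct
The Crb3 stretch holds 3 matches and those of Cldn4, Cldn6, Figla, Tdrd1 and Elavl3 hold 1 each. All of them lie inside the called region except that of Tdrd1, whose region covers only the last 68 of the 250 bases. The Noto stretch has none of these letters, which says nothing of which factors bind there.

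At the gene starts, the E-box was more frequent than in start windows at large. Of the 79 windows in regions called only at D2 and D3, 37 held CAGGTG (46.8%, Wilson 95% interval 36.2 to 57.7%), against 20.3% of all 32619 windows and 16.7% of the 10911 windows in regions called in all 12 lists. Counting only matches whose 6 bases lay inside the called region, the shares were 31 of 79 (39.2%, 29.2 to 50.3%) and 16.4% for regions called in all 12 lists, which are wider. These and all later intervals cover counting error only, windows of 1 region are not independent of each other, and a match is a description of letters, not a bound site.

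Regions with a related calling pattern had lower shares, with intervals that overlapped that of the D2-and-D3-only windows. The E-box was in 34.5% (29.5 to 39.8%) of 322 windows in regions called at D2, D3 and 1 to 3 further lists, in 31.1% (23.6 to 39.8%) of 122 windows in regions called at D2 alone or D3 alone, and in 36.7% (21.9 to 54.5%) of 30 windows in regions called from 2i to D3. It was in 16.4% of 189 windows in regions called at D2 and in every later list, and in 15.5% of 103 windows in regions called only at D7 and D8. Windows of regions called only at 2i (29.1%, 20.5 to 39.4%) or only at D4 (28.4%, 21.7 to 36.1%) lay between these groups, so a raised share was not limited to D2 and D3. Counting only matches inside the called region, 2i to D3 had 36.7% (21.9 to 54.5%), close to the 39.2% of the D2-and-D3-only windows. On that count, D2, D3 and 1 to 3 further lists had 30.7% (26.0 to 36.0%). D2 alone or D3 alone had 22.1% (15.7 to 30.3%).

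**Figure D1:**
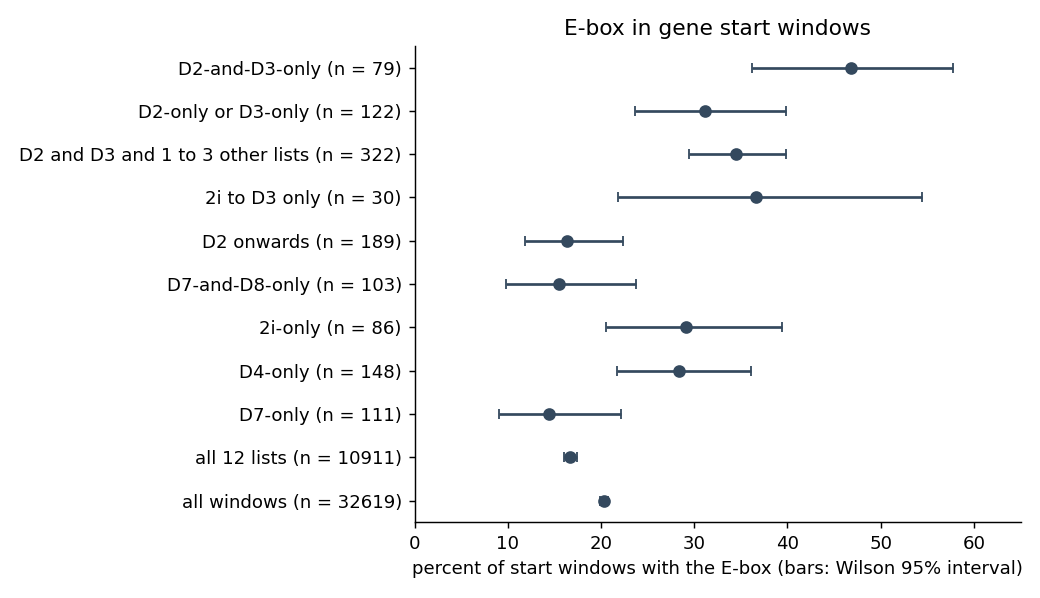
Share of gene start windows (percent, horizontal axis) that hold the SNAI and ZEB E-box on either strand, by the lists in which the region was called; n is the number of windows and bars are Wilson 95% intervals. The windows of the D2-and-D3-only regions have the highest share, 46.8%, with an interval that does not overlap that of all windows (20.3%) but overlaps those of the 2 groups called at D2 or D3 with few or no other lists, of 2i to D3 and of 2i alone.

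Base composition differed between these groups of windows. The median GC content was 59.7% in the D2-and-D3-only windows, 63.7% in the windows called in all 12 lists and 53.0% in all windows, and the median observed over expected CpG ratio was 0.450, 0.818 and 0.387. Within windows of 55 to 60% GC, the E-box was in 12 of 25 windows of the D2-and-D3-only regions (48.0%) and in 24.9% of all windows. Within 60 to 65% GC the values were 12 of 25 (48.0%) and 22.5%, and within 65 to 70% GC 8 of 13 (61.5%) and 19.7%. The share in the D2-and-D3-only windows was higher in each of these bins, and also between 50 and 55% GC (4 of 10, against 23.5%). The bins hold few windows, the CpG ratio was not matched, and the related groups were not binned. The part of base composition in the E-box share was not tested.

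Several windows held the E-box more than once. There were 2 or more matches in 15 of the 79 windows, and 4 in those of Crb3, of Mfsd6l, which encodes a membrane transporter of the major facilitator family, and of the non-coding gene 1810019D21Rik, which starts in the region at Esrp2. Esrp2 itself encodes an epithelial splicing regulator. There were 3 matches in the windows of Figla, Tmem184a and Myo1h. These names were picked after their matches were seen. Repeated matches were not counted over all windows or in the related groups, so their number is a description only. Overlapping windows of the same region, such as those of Crb3, each count.

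Of the 17 motifs searched and 4 added after the data were seen, CAGGTG had the largest ratio between these windows and all windows, 2.3. The ZIC motif CAGCAGG came next, in 17 of 79 windows (21.5%, 13.9 to 31.8%) against 10.6% of all windows, a ratio of 2.03, and its last bases can overlap an E-box. Its share was similar in windows of regions called at D2, D3 and 1 to 3 further lists (20.8%) and at D2 and in every later list (19.6%). It was also similar for regions called only at D4 (18.2%), only at 2i (17.4%), and at D2 alone or D3 alone (17.2%). The ZIC share was thus not particular to the D2-and-D3-only regions. ZIC factors are zinc-finger proteins of the epiblast and early neural tissue. The CAGATG E-box, a motif of MESP and related bHLH factors, was in 17.7% of the windows against 17.1% of all. The lowest ratios, 0.34 for the TCF/LEF letters CTTTGAT and 0.34 for the FOXA letters TGTTTAC, each rest on 1 window of 79. The GATA letters AGATAA were in 4 (5.06%) against 11.2% of all windows. The GATA share was also low for D2, D3 and 1 to 3 further lists (6.21%) and D2 alone or D3 alone (6.56%). For all 12 lists it was under 5.06%. It was 7.41% for D2 and every later list, and 13.3 to 16.9% for 2i to D3, 2i alone, D4 alone, and D7 and D8. A low GATA share was thus not particular to the D2-and-D3-only regions. TCF/LEF was in 0.82% of windows for D2 alone or D3 alone and 3.42% for D2, D3 and 1 to 3 further lists. All motifs were searched on both strands in the same 300-base windows.

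The germline genes supplied 9 of the genes whose start lay in such a region, 6 of them with the E-box in the window. This list of 56 germline genes was compiled after the names of the members had been seen, so the number is a description of what the regions hold. In all, 11 of the 1341 regions were assigned to 10 of the 56 genes (17.9%), and over all 21631 protein-coding genes 1052 (4.86%) had at least 1. For this, a region's gene is the one whose body contains its centre, or otherwise the closest body no more than 50 kb away.

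Each peak carries a fold enrichment, the authors' ratio of signal to local background, and the −log10 of its q-value, which are read within 1 list only. At the start of Adad2, a testis RNA-binding gene, the region chr8:119612462-119613012 had a fold enrichment of 4.35 at D2 and 10.4 at D3. The first lay at percentile 34.5 of the D2 peaks and the second at percentile 69.2 of the D3 peaks. Mov10l1, the helicase of piRNA biogenesis, had 4.61 and 9.24 at its start, and Zglp1, a factor of oocyte fate, 3.65 and 8.15. These 3 starts ranked higher among the D3 peaks than among the D2 peaks. Tdrd1 had 5.48 at both D2 and D3, where the −log10 q was 11.0 and 42.1. Figla had 3.71 and 5.54, and Izumo1r, which encodes the egg's receptor for the sperm protein IZUMO1, 4.91 and 5.70. Topaz1, a germ-cell RNA-binding gene, had 1 region at its start (6.03 and 7.17) and 1 located 24.8 kb to the left of the gene (4.87 and 9.22). Rnf212b and Spo11, both genes of meiotic recombination, had 3.55 and 8.61, and 4.08 and 5.36. Spo11's region lay inside the gene, 2.57 kb from its nearest end. That of Dmrtb1, a male germ-cell factor, held an annotated start inside the gene and had 3.39 and 3.48.

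The whole germline list can be followed through the lists by gene-end peaks, whose summit is no more than 1 kb from an annotated end of the gene (start or end of transcription). Over all protein-coding genes such a peak was called for 55.4% at 2i, 55.3% on D0 and 50.9% on D1. The shares for D2, D3 and D4 were 60.7%, 61.8% and 59.3%, and those for D5, D6, D7 and D8 were 60.3%, 58.5%, 63.6% and 61.9%. D10 and D15 had 55.9% and 55.1%. Of the 56 germline genes, 21 had a gene-end peak in the 2i list, 25 in that of D0 and 22 in that of D1. The number was 36 at D2 and 39 at D3, and 18 at D4. From D5 to D8 the number was 15 to 21, and it was 13 at D10 and 11 at D15. The 46 germline genes without a D2-and-D3-only region, which the rule did not select, numbered 22 with such a peak at D1, 28 and 31 at D2 and D3, and 17 at D4. Their share at D3 (67.4%, 53.0 to 79.1%) was near the share of all genes, while that at D4 (37.0%, 24.5 to 51.4%) was below it.

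Epithelial genes supplied 7 genes with a start in such a region, 5 of them with the E-box, and 14 regions at 12 of 54 genes, again from a list compiled after the members were seen. These 12 genes are 22.2% of the list, and 4.86% of all protein-coding genes had a region. With a list made this way, the share is a description only. Cdh1, which encodes E-cadherin, had a region inside the gene 7.80 kb from its nearest end, with a fold enrichment of 2.76 at D2 and 5.07 at D3. The first of these was among the lowest of its list, at percentile 1.34. At their starts, Cldn6 had 4.67 and 7.14, Cldn4 4.18 and 6.63, and Crb3 3.35 and 3.94, with a −log10 q at D3 of 56.7, 24.4 and 35.5. Evpl, which encodes the cornified-envelope protein envoplakin, had 2 regions, 1 of them 0.004 kb from its gene end at 5.96 and 9.49. Tjp3, encoding the junction protein ZO-3, also had 2, both inside the gene, at 3.41 and 3.05 and at 3.27 and 5.49. The starts of Krt7 (a simple-epithelium keratin), Lgals3 (galectin 3), Nectin4 (a junctional adhesion protein) and Lypd3 had fold enrichments of 3.37 to 4.30 at D2 and 3.01 to 4.59 at D3.

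Across lists, epithelial genes with a gene-end peak numbered 29 of 54 in the 2i list and 26 in the D1 list. The number was 44 at D2 and 48 at D3, and 32 at D4. They stayed at 38 to 40 from D5 to D8 and numbered 22 at D10 and 21 at D15. The 42 without a D2-and-D3-only region had 23 at D1, 33 and 37 at D2 and D3, 30 at D4 and 36 at D7. In contrast with the germline genes, the gene-end peaks of these epithelial genes were nearly as many at D7 as at D3.

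**Figure D2:**
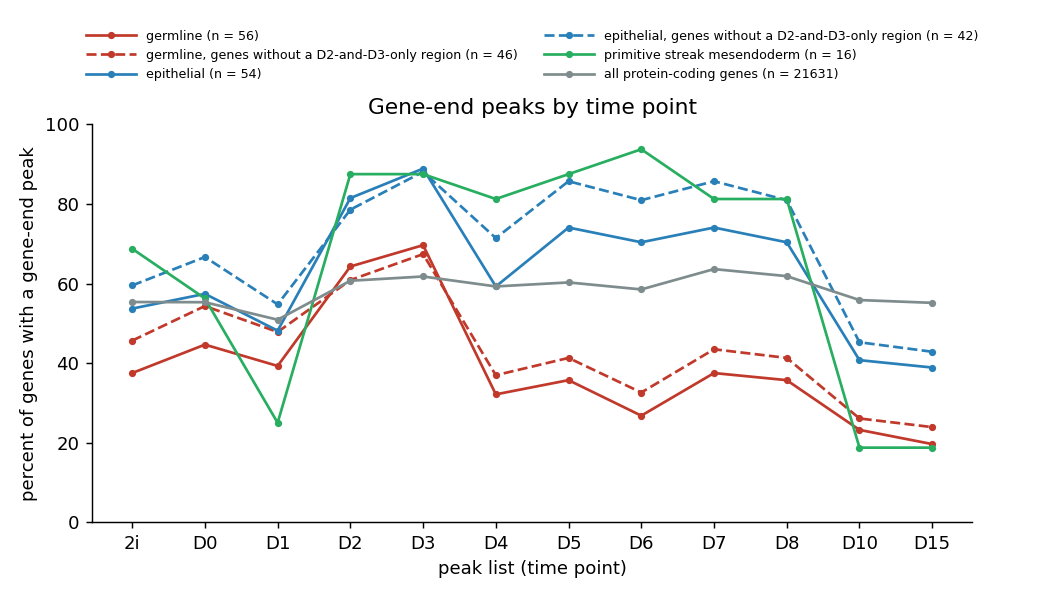
Percent of the genes of a list (vertical axis) with a peak summit within 1 kb of an annotated gene end, at each of the 12 time points (horizontal axis); broken lines leave out genes that hold a D2-and-D3-only region, and n is the number of genes. The germline genes reach 39 of 56 at D3 and 18 of 56 at D4, but this list was compiled after the members were seen and 10 of its genes hold such a region. The 46 germline genes without one number 31 with a peak at D3 (67.4%, near the 61.8% of all genes) and 17 at D4. All protein-coding genes stay between 50.9% and 63.6%.

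Neuronal genes held 28 of the regions, at 18 of 46 genes of a list also compiled after the members were seen. That is 39.1% of the list, against 4.86% of all protein-coding genes, and 46.5 per 1000 regions assigned to these genes, against 12.1 over all genes. With a list made this way a high share is built in, so these values are a description only. An annotated start lay in such a region for 7 neuronal genes, 3 of them with the E-box. For Apc2, Celf3, Celf5 and Myt1l that start was inside the gene, in a region 3.2 to 9.7 kb from the nearest gene end. Ntrk2, which encodes the neurotrophin receptor TrkB, had 3 regions inside its body of 327 kb and 1 located 20.4 kb to its left, with fold enrichments of 2.91 to 6.53 at D2 and 6.03 to 8.03 at D3. Nfasc, which encodes the axonal adhesion protein neurofascin, had 3, at 4.01 to 5.89 and 3.73 to 7.48. The region at the Elavl3 start had 3.44 and 2.77, the second at percentile 2.66 of the D3 peaks. That at an annotated start inside Celf3, an RNA-binding protein gene of the nervous system, had 4.68 and 8.88. Gad1, encoding the GABA-synthesising enzyme, had 3.34 and 5.75 near its start. The 28 neuronal genes without such a region had a gene-end peak in 21 to 25 cases in each list from 2i to D8, with 23 at D2 and 24 at D3.

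In the 15 groups of developmental, signalling and reference genes, 23 regions lay at 21 of 241 genes. That is 12.5 per 1000 regions assigned to these genes, against 12.1 per 1000 over all protein-coding genes. The formative and primed pluripotency group held most, 5 regions at 3 of 15 genes. Pou3f1, a POU factor of the epiblast, had 1 region 17.7 kb to the left of the gene (fold enrichment 6.20 at D2 and 8.19 at D3) and 1 located 7.50 kb to the right (4.47 and 5.53). With 2 assigned regions, both outside its body of 3.01 kb, Pou3f1 had the most assigned regions per gene length, 66.4 per 100 kb, among genes with more than 1. That value counts regions up to 50 kb outside a gene, so it favours short genes and is not a density along the gene. Etv5, an ETS factor downstream of FGF signalling, had 4.84 and 7.28 inside the gene and 3.37 and 2.95 at 0.88 kb from its end. Dnmt3b, a de novo DNA methyltransferase, had 5.68 and 4.52 at 6.28 kb to its left.

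The primitive streak group had 3 regions at 3 of 16 genes. Nodal, the TGF-beta ligand that patterns the epiblast, had 3.68 at D2 and 2.78 at D3 inside the gene, the second at percentile 2.73 of its list. Wnt3, the ligand needed for streak formation, had 3.33 and 4.38 inside the gene. Wnt8a, another ligand of the streak, had 6.69 and 8.18 at 3.89 kb to the right of the gene, with a −log10 q of 46.6 at D3, the strongest q in the group. T, Eomes, Mixl1, Mesp1, Gsc, Fgf8, Fgf5, Wnt3a, Sp5, Lhx1, Cer1, Foxa2, Otx2, Lefty1, Lefty2, Nanog, Pou5f1 and Sox2 had none, although up to 14 merged regions (Gsc and Foxa2) were assigned to them. Of these streak factors, T, Eomes, Mixl1 and Gsc each had a gene-end peak at D2 and D3 and in at least 6 other lists.

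The remaining groups had 3 regions or fewer. Paraxial mesoderm and skeletal muscle had 3 (Pax3 and Pax7, paired-box factors, and Myod1, the myogenic bHLH factor), with Pax7 at 4.09 and 7.00 and Myod1 at 2.87 and 6.98. Definitive endoderm had 2, at Cldn6 and at Prdm1, which encodes the repressor BLIMP1 (4.96 and 3.15). Nascent mesoderm had 2, at Bmp4 (4.25 and 6.88), a ligand, and Msgn1 (3.19 and 4.30), a presomitic bHLH factor. Wnt signalling had 2 (Tcf7, a TCF/LEF factor, and Wnt5a, a non-canonical ligand) and sarcomere genes had 2 (the myosin gene Myh6 and the tropomyosin gene Tpm1). Naive pluripotency (Tbx3), cardiac progenitors (the pacemaker channel gene Hcn4), endothelium and blood (the ETS factor gene Fli1) and neural ectoderm (Pax2) had 1 each. The regions of Msgn1, Tbx3 and Tpm1 lay outside the genes, 19.1 to 22.1 kb away. That of Fli1 was at percentile 0.97 of the D2 peaks. The Nodal, TGF-beta and BMP, FGF, Hox and housekeeping groups had 0 of their 24, 15, 14 and 13 genes.

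Over the genome, 968 genes had 1 region, 73 had 2, 8 had 3 and 3 had 4. The genes with 4 were Elfn1, which encodes a synaptic leucine-rich repeat protein, Ntrk2 and Skap1, which encodes a T-cell adaptor protein. At Skap1 the fold enrichment was 2.95 to 4.57 at D2 and 4.02 to 10.3 at D3. Acsf3, Eya2, Nfasc, Nxn, Pakap, Rad51b, Sdk1 and Slit3 had 3. After Pou3f1, the genes with most assigned regions per gene length were Tuba1a, an alpha-tubulin gene (54.7 per 100 kb), Gpx5, a glutathione peroxidase gene (31.8), Cryba4, a lens crystallin gene (11.7), and Evpl (11.4), each with 2. The regions of Tuba1a, Gpx5 and Cryba4 lay outside the gene bodies, and those of Evpl inside.

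Of the 1341 regions, 217 (16.2%) were within 50 kb of another, and the median distance between neighbours was 612 kb. The same share was not counted for the other pairs of lists or for all merged regions, so closeness is a description only. There were 10 stretches with 3 or more regions no more than 50 kb apart, holding 33 regions in all. The stretches of 4 were on chromosome 4 at Fgr and Ahdc1 (113 kb), on chromosome 5 at Elfn1 (103 kb) and on chromosome 10 at Onecut3, Atp8b3 and Klf16 (76.1 kb). Within the last, the region inside Onecut3, a homeobox gene of neural cells, was the strongest (5.06 at D2 and 8.28 at D3) and the other 3 had 2.91 to 4.32 at D2. A stretch of 3 on chromosome 2 began 10.2 kb to the right of Sall4, a zinc-finger gene of pluripotent cells, where the first region had 4.59 and 12.3. The 3 regions at Akr1d1 and to its right spanned 85.2 kb on chromosome 6.

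By position relative to genes, the D2-and-D3-only regions were nearer to gene starts than regions confined to the 3 other pairs of lists compared here. In the share within 10 kb of a start they were similar to regions called at D2 alone or D3 alone, but they more often held a start. Starts were looked up for the 1308 regions outside chromosome 18, and 436 of them (33.3%, 30.8 to 35.9%) had their centre within 10 kb of a start, compared with 9.47% (7.67 to 11.6%) of regions called only at D0 and D1, 25.3% (20.4 to 30.8%) of those called only at D3 and D4 and 25.3% (24.1 to 26.5%) of those called only at D7 and D8. Regions called at D2 alone or D3 alone had 30.7% (29.4 to 31.9%) and a median distance to a start of 20.3 kb, and all regions had 28.9%. For the D2-and-D3-only regions the median distance was 17.2 kb, against 111 kb, 22.6 kb and 25.3 kb for these pairs and 27.7 kb for all regions. They held a start themselves in 5.05% of cases (3.99 to 6.37%), against 0.96 to 3.02% for the 3 other pairs, where the interval of D3 and D4 (1.54 to 5.84%) overlapped theirs. Regions called at D2 alone or D3 alone, which were narrower (median 306 bp against 517 bp), held one in 2.15% (1.79 to 2.58%). All regions, which include those called in all 12 lists, held one in 10.3%. For 191 of the D2-and-D3-only regions (14.2%, 12.5 to 16.2%) no protein-coding gene lay within 50 kb. This held for 54.9%, 24.1% and 16.8% of the 3 pairs, 17.3% of regions called at D2 alone or D3 alone and 25.9% of all regions.

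**Figure D3:**
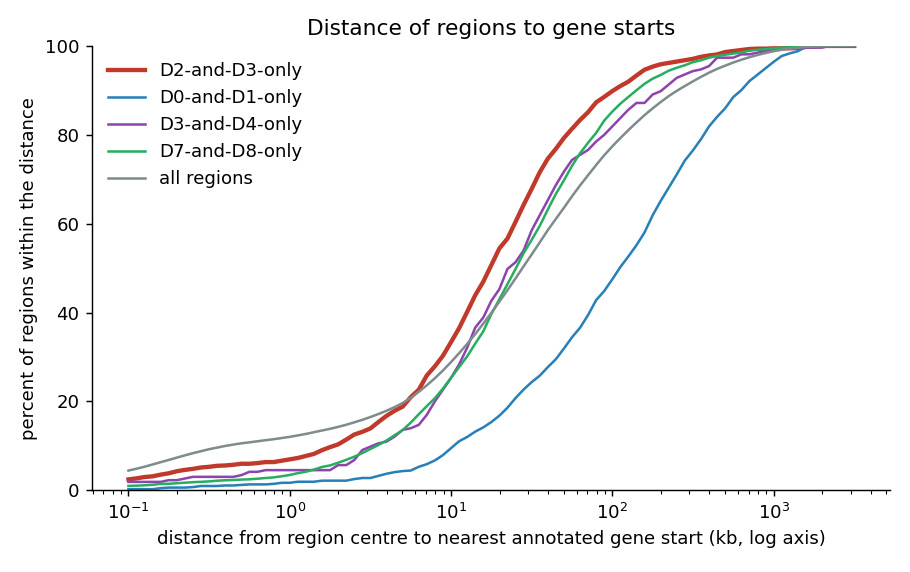
Cumulative percent of regions (vertical axis) within a given distance of the nearest annotated gene start (kb, log axis), for 4 pairs of neighbouring lists and for all merged regions outside chromosome 18. The curve of the D2-and-D3-only regions lies above those of the other 3 pairs between 10 and 100 kb, with medians of 17.2, 111, 22.6 and 25.3 kb.

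Gene bodies held 717 of the D2-and-D3-only regions (53.5%, 50.8 to 56.1%). The share was 50.9% (49.6 to 52.3%) for regions called at D2 alone or D3 alone and 48.2% for all regions. For the pairs D0 and D1, D3 and D4, and D7 and D8 it was 24.6%, 41.0% and 56.9%. A gene end lay within 1 kb of 105 of the D2-and-D3-only regions (7.83%, 6.51 to 9.39%), against 1.26%, 3.60% and 3.77% for the same pairs. It was 6.45% (5.82 to 7.13%) for regions called at D2 alone or D3 alone and 11.9% for all regions. The share of the D2-and-D3-only regions depends on the threshold, and was 9.97% when a −log10 q of 5 was required of every peak. By chromosome, the regions made up 1.83 of every 100 merged regions on chromosome 19 and 1.60 on chromosome 11, and 0.55 on chromosome 3 and 0.63 on chromosome X. Annotated microRNA hairpins overlapped 3 of the D2-and-D3-only regions, and the share over all merged regions was not counted.

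The regions were weak within their own lists. At D2 the fold enrichment ranged from 2.02 to 15.2 with a median of 4.10, while all D2 peaks had a median of 5.26, and 257 of the 1341 (19.2%) exceeded that. At D3 it ranged from 1.88 to 24.3 with a median of 4.88 against 6.39 for all D3 peaks, and 405 (30.2%) exceeded that. The median −log10 q was 3.93 at D2 (8.15 for all peaks) and 8.36 at D3 (16.5). These values are part of what selected the regions. Fold enrichments at D2 and D3 were related across the 1341 regions with a Spearman's rho of 0.43, as a description over regions that share both lists.

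**Figure D4:**
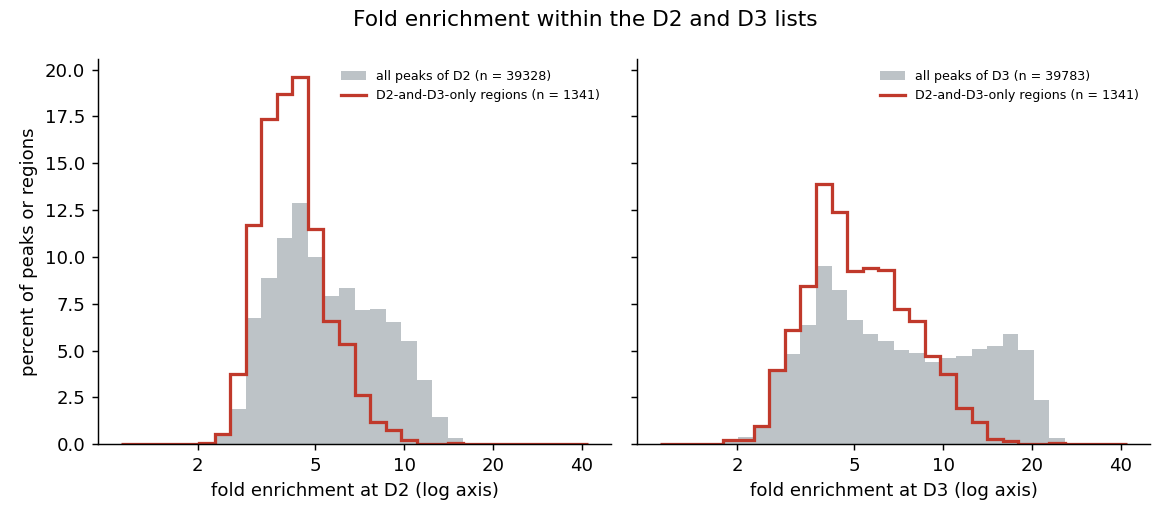
Histograms of the authors' fold enrichment (log axis) in the D2 list (left) and the D3 list (right), as percent of all peaks of the list (grey) and of the D2-and-D3-only regions (red outline). The red outlines sit towards low values, with medians of 4.10 and 4.88 against 5.26 and 6.39 for all peaks.

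The rule requires a call at D2 and at D3 in the same region, so closeness of the 2 calls is a description. Most regions, 1170 (87.2%), had 1 summit in each list, the 2 strongest summits were a median of 67 bp apart, and 860 (64.1%) lay within 100 bp of each other. The median width was 517 bp, close to 502 bp for all regions and narrower than the 1011 bp of all regions called at D2 and D3. The nearest peak of any other list was a median of 4.56 kb away, and in 85 cases (6.34%) within 500 bp. For the D1 list alone the median was 28.4 kb, for D4 15.1 kb, for D6 14.2 kb and for D7 7.29 kb. These lists held 31324, 56053, 32791 and 66993 peaks, and the part of list length in the distance was not tested.

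The 20 regions with the highest value of the lower of their 2 fold enrichments were spread over the genome. The first, chr13:3037117-3037395, is 279 bp wide, lies 501 kb from the nearest protein-coding gene close to the annotated beginning of chromosome 13, and had 15.2 at D2 and 24.3 at D3, the highest of all 1341. A second region of the 20, 313 bp wide, lies nearby on chromosome 13, at 9.22 and 10.9. Whether repeats or other problem regions were masked is unknown here, and whether these 2 regions lie in repeats was not tested. Without the first, the highest fold enrichments were 10.4 at D2 and 17.8 at D3. Next after the first came a region inside Zcchc7, a gene of nuclear RNA surveillance (10.4 and 10.5), a region 1.06 kb to the right of Elp6, which encodes an Elongator subunit (10.3 and 16.8), and a region 3.72 kb to the left of Arfgef3 (10.2 and 9.75). The others included regions inside Zmat4 (D3 fold enrichment 10.3), Btbd9 (8.50 and 10.3) and Tesk2 (8.10 and 9.89). Regions outside genes lay 2.61 kb from Spata3, 5.40 kb from B3galt6, 37.5 kb from St18 and 49.3 kb from Ythdf1. The one assigned to Ythdf1 had the highest −log10 q at D3 of all 1341, 191, at a fold enrichment of 13.9. None of the 20 was at a gene of the 15 groups, but only 23 of all 1341 regions were, so this absence says little.

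Against the other pairs of neighbouring time points, the number of regions was neither the highest nor the lowest. With 1341, D2 and D3 had fewer than 3 of the other pairs among the 11, D7 and D8 (5281), 2i and D0 (3044) and D4 and D5 (1436). The pairs on either side had fewer, 141 for D1 and D2 and 278 for D3 and D4, and they share a list with D2 and D3. The 1341 regions were 5.27% of the 25465 regions called at both D2 and D3, of which 11089 (43.5%) were called in all 12 lists and 1095 (4.30%) in exactly 1 further list.

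**Figure D5:**
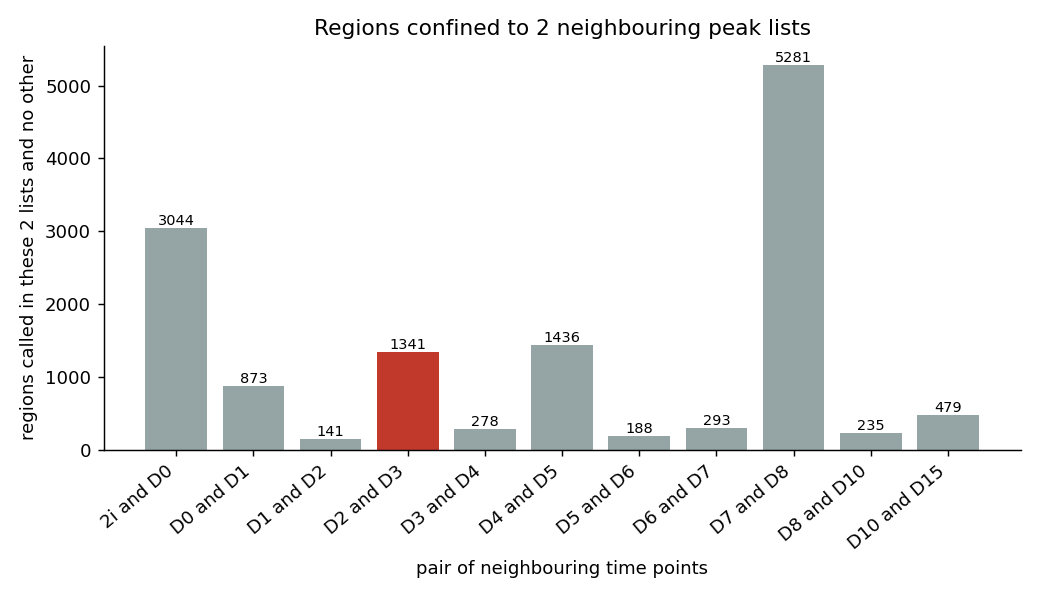
Number of merged regions (vertical axis) called in the 2 named neighbouring lists and in no other, for the 11 pairs of neighbouring time points (horizontal axis). The pair D2 and D3 (red) has 1341 regions, between 141 for D1 and D2 and 5281 for D7 and D8.

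The rule's threshold is the authors' q of 0.05, so regions on either side of it can be close in value. Just inside, 188 regions (14.0%) had a −log10 q under 2 at D2 or D3, with lowest values of 1.30 and 1.32, and 11 had this at both. Just outside were regions called at D2, D3 and 1 more list: 259 with 2i, 205 with D4, 197 with D7, 153 with D0 and 106 with D1, where the median −log10 q in the further list was 4.46, 4.46, 3.99, 3.73 and 3.59. There were 71 with D5, 54 with D8 and 42 with D6, where that median was lower, at 3.22, 2.69 and 2.63, and 3 with D10 and 5 with D15 (2.56 and 5.69). When peaks at D2 and D3 had to reach a −log10 q of 5 and the other lists were used as deposited, a setting chosen after seeing the data, 396 regions remained.

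The lists also differed in length and in statistical weight. They held 31324 (D1) to 66993 (D7) peaks, with 39328 at D2, 39783 at D3 and 56053 at D4. At a fold enrichment of 4.9 to 5.1, the median −log10 p was 8.65 at D2, 11.6 at D3, 9.14 at D1 and 7.71 at D4, so the same enrichment was given the most weight at D3 and the least at 2i (7.69). The part of these differences in which regions were called at D2 and D3 alone was not tested. With the 31324 strongest peaks of every list, 1198 regions were called only at D2 and D3. Gene-end peaks at marker genes did not follow the labelled stages closely. The 4 streak markers T, Eomes, Mixl1 and Gsc all had one from D2 to D8, but 3 of 4 also had one at 2i, 4 at D0 and 2 at D1, and 1 and 2 at D10 and D15. Of the 4 cardiomyocyte markers, Tnnt2 had one from D5 onwards, Actn2 in all 12 lists, Nkx2-5 in 5 lists but not at D10 or D15, and Myh6 in none.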

How the data were processed

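The authors profiled 24 samples by ATAC-seq and deposited 1 narrowPeak list per time point. The build was mm10, peaks were called with MACS2 2.1.1, and the other tools named are Bowtie2 2.3.2, cutadapt 2.10, Picard and SAMtools 1.5, per the submitters' processing notes. The deposited fold enrichment is a linear ratio, and the deposited −log10 p-value and −log10 q-value are the peak caller's. Read depth, any shifting of reads and the way replicates were combined are unknown here (not given in the sources used), so no precision from depth can be stated.

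Peaks were merged with bedtools 2.31.1. Each region's values are those of its strongest peak in a list. Genes came from a RefSeq table of GRCm38.p6 (21631 protein-coding genes), where left and right are by coordinate. Motifs, planned on a genome, were searched instead in RefSeq's 300-base gene start windows, because no genome was used here. Chromosome 18 (33 of the regions) is not in that table and was not used here for starts. Procedures were tested on simulated data. The members, gene lists and motifs were chosen with earlier results of these data known. The germline, epithelial and neuronal lists and 4 motifs were added after the member names had been seen.

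Genes were named by rule: per group the up to 3 with most regions, the 10 with most genome-wide (ties kept), the 5 with most per 100 kb, those at the 20 regions of highest lower fold, 23 markers in every case, and the first 5 of the closest stretches. Other names were chosen after their values were seen. No test was run, since each time point has 1 list. Alternatives were a stricter threshold, equal list lengths, other merging, overlap, peak extent and distances, and leaving out each other list.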

Additional observations from a re-analysis of the deposited data

How the results depend on the processing

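Of 63 alternative values for 11 results, 57 stayed within 1.5 times the reported count or within the 95% interval of the reported share, and 6 did not. The limit for counts is wide: the number of genes (1052) fell to 730 and that of epithelial genes with a gene-end peak at D15 (21) to 15 within it, both with a −log10 q of 5 required. The share of regions within 1 kb of a gene end (7.83%) was 9.97% when every peak had to reach a −log10 q of 5 and 10.8% when all lists were cut to the same length. It was 5.00% for ends within 500 bp and 12.8% within 2 kb, where the distance itself differs. The number of regions (1341) was 396 when only the D2 and D3 peaks had to reach a −log10 q of 5. It was 923 with that threshold in all lists, and 1344 (without D10) to 1602 (without 2i) when 1 other list was left out. Germline genes with a gene-end peak at D15 (11) numbered 7 within 500 bp. The E-box share stayed between 40% and 46.5%. No paired analysis was possible because the 2 replicates of a time point share 1 peak list. The planned change of the motif window around region centres was not run, since no genome was used here. With 1 list per time point and unknown depth, accessibility and the statistical weight of a list cannot be told apart.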
